A study of Mus musculus with 8 samples.

Results

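The chemokine system of mouse perigonadal white fat is described here through 48 genes, 29 chemokine ligands and 19 chemokine receptors, out of 23212 gene symbols counted. A gene was taken as a member when its symbol began with Ccl, Cxcl, Xcl or Cx3cl (ligands) or with Ccr, Cxcr, Xcr or Cx3cr (receptors), followed by a number, and when its reads summed to at least 10 counts over the 8 libraries. The symbol pattern matched 57 symbols, 37 of ligands and 20 of receptors, and 9 of them fell under the count minimum. The RNA came from whole perigonadal fat pads of 4 C57BL/6 mice in which a gene had been knocked out in adipocytes, and of 4 C57BL/6 wild types, and was read by sequencing. All mice were 20 weeks old and had eaten a 45% fat diet for 12 weeks from 8 weeks of age, and mice of both genotypes were matched for age and weight. The Cre line or other means of deletion in adipocytes, and the genetic control carried by the wild-type mice, were not stated in the sources at hand.

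Chemokines are small secreted proteins that direct the movement of leukocytes along a concentration gradient, and their receptors are 7-transmembrane proteins that signal through inhibitory G proteins. Inflammatory ligands such as Ccl2 are induced in injured or inflamed tissue, whereas homeostatic ligands such as Cxcl12 are made steadily and keep cells in their niches. In obese white fat, monocytes carrying Ccr2 are drawn in by Ccl2 and become macrophages, and the lymphoid receptors Cxcr3, Cxcr5 and Cxcr6 mark T cell and B cell subsets.

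The libraries held 46444435 to 51431956 counts each, and 14493 genes had enough counts to be tested, among them 26 ligands and 12 receptors. The labelled tissue fitted its markers, since the summed level of 10 mature adipocyte markers was 44000 to 56500 CPM (the read count relative to library size) in knockout mice and 40500 to 55100 CPM in wild-type mice. The libraries of knockout 2 and wild type 3 stood apart in Foxj1, a transcription factor of ciliated cells. Foxj1 was at 26.1 CPM in knockout 2, against at most 0.287 CPM in the other knockout mice. It was at 7.97 CPM in wild type 3, against at most 0.186 CPM in the other wild-type mice. Over all genes wild type 3 did not stand apart, since with wild type 4 it formed the most alike pair of libraries within a genotype. Genotype comparisons are therefore also given without this pair of libraries. In the mean log2 CPM of 10 macrophage markers, knockout 2 was the lowest knockout mouse (4.59) and wild type 3 the highest wild-type mouse (5.74). Leaving out the pair thus also raises macrophage markers in the remaining knockout mice relative to the remaining wild-type mice. The part of this shift in the fits without the pair was not tested. In bulk tissue, fewer cells of a type and less RNA per cell cannot be told apart.

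No chemokine ligand and no chemokine receptor passed the test for a difference between genotypes, and for each the mice of the genotypes overlapped. In the edgeR quasi-likelihood test, 0 of 26 ligands and 0 of 12 receptors passed an adjusted p of 0.05, against 2 of 14493 genes over the whole table (0.0138%). At an unadjusted p of 0.05 the counts were again 0 and 0, where 2.23% of all tested genes fell under that value. DESeq2 and limma voom also called 0 members after adjustment, and at an unadjusted p of 0.05 DESeq2 counted 0 ligands and 1 receptor and limma voom 0 of each. No tested member had groups that did not overlap, as 1.44% of all tested genes did.

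Among the ligands, 16 had a log2 fold change of knockout over wild type above 0 and 10 below 0, with a median of 0.148, where 53.1% of all tested genes lay above 0 with a median of 0.011. Among the receptors, 10 lay above 0 and 2 below, with a median of 0.302. The median standard error (SE) of these log2 fold changes was 0.6 for ligands and 0.5 for receptors, against 0.17 for all genes. The fold changes of members were thus less precise than that of a typical gene, and the SE holds counting error as well as the spread between mice. With a filter of 1 CPM in 4 libraries, the median SE was 0.46 for ligands and 0.38 for receptors, against 0.16 for all genes. The ligand median log2 fold change was -0.108 without knockout 4, and the receptor median was then 0.08. Without knockout 2 and wild type 3, the ligand median was 0.254 and the receptor median 0.589, with 17 of 27 ligands and 10 of 12 receptors above 0, where 48.8% of all genes were. Leaving out this pair also shifts the macrophage markers between the genotypes, as given above.

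**Figure D1:**
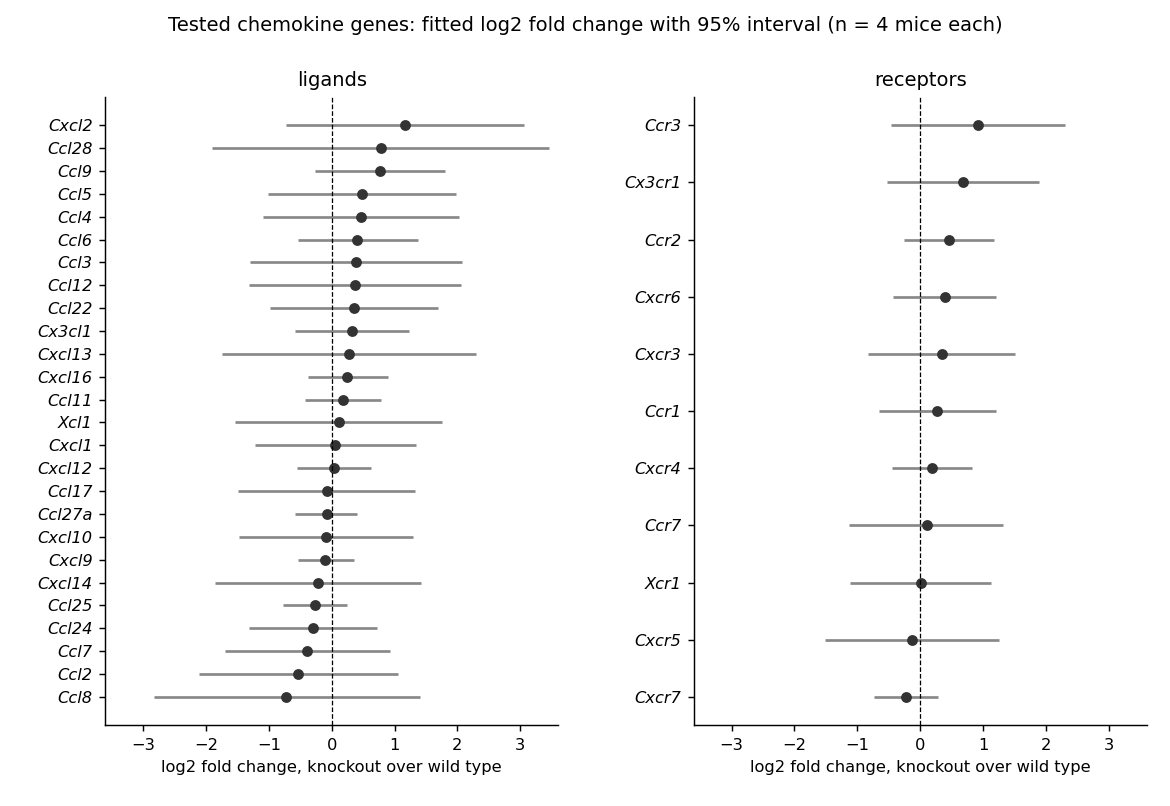
Log2 fold change of knockout over wild type for 26 tested ligands and 11 of the 12 tested receptors, with points for the fitted value and bars for the 95% interval, from 4 mice of each genotype. Every bar crosses 0, Ccr3 (0.92) lies furthest to the right among the receptors drawn, and Ccl8 (-0.72) lies furthest to the left among ligands.

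In TPM, the scale per exon length on which levels of different genes can be compared, the ligands of these fat pads were dominated by a few genes. Ccl6 averaged 262 ± 129 TPM in knockout and 198 ± 96.6 TPM in wild-type mice (SD, n = 4 each) and made up 35.4% of the summed ligand TPM in knockout and 30.7% in wild-type mice. Ccl9 followed with 123 ± 79.1 TPM in knockout and 72.8 ± 29.6 TPM in wild-type mice, then Ccl11 with 89.3 ± 30.0 TPM in knockout and 79.4 ± 24.2 TPM in wild-type mice. Ccl6 and Ccl9 are ligands of Ccr1 made mainly by myeloid cells, and Ccl11, or eotaxin, attracts eosinophils through Ccr3. The ranges of Ccl9 and Ccl11 over the mice overlapped. The next ligands by mean TPM over the 8 libraries were Ccl8, Cxcl12, Cxcl9, Ccl2 and Ccl7, whose ranges over the mice overlapped each other. In all, 11 ligands averaged 10 TPM or more, 12 lay between 1 and 10 TPM, and 6 lay between 0.1 and 1 TPM. The summed ligand level was 716 ± 266 TPM in knockout and 625 ± 219 TPM in wild-type mice, a difference smaller than the SD within either genotype.

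**Figure D2:**
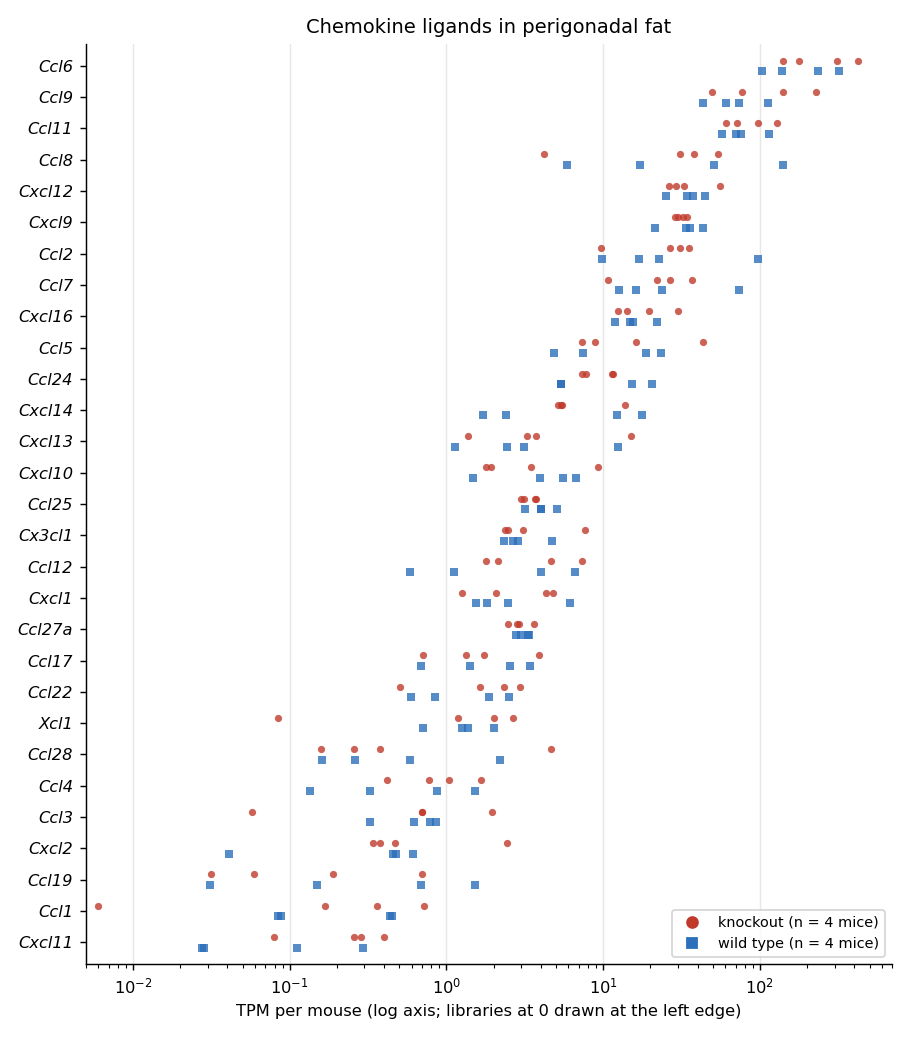
Level in TPM, on a log axis, of 29 chemokine ligands in each of 8 mice, ordered by mean, with circles for knockout and squares for wild-type mice. Ccl6, Ccl9 and Ccl11 have the highest means, and the points of the genotypes overlap for each of the 26 tested ligands.

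Ccl6 (chr11:83587886-83593087) and Ccl9 (chr11:83572917-83578636) lie next to each other on the minus strand in the mm10 coordinates of the authors' annotation. Ccl6 was at 207, 90.3, 117 and 272 CPM in knockout 1 to 4, against 68.7, 91.6, 197 and 159 CPM in wild type 1 to 4. Ccl9 was at 197, 66.9, 107 and 307 CPM in knockout 1 to 4, against 60.0, 84.2, 146 and 106 CPM in wild type 1 to 4. For both genes knockout 4 was highest and wild type 1 lowest, knockout 2 lay below 3 of the wild-type mice, and the genotypes overlapped. The log2 fold change was 0.41 for Ccl6 (SE 0.42, 95% interval -0.54 to 1.37) and 0.77 for Ccl9 (SE 0.459, interval -0.27 to 1.81), both with an adjusted p of 1 in edgeR's quasi-likelihood test. Ccl9 had the smallest unadjusted p of the ligands (0.128). Without knockout 2 and wild type 3 its log2 fold change was 1.29 (SE 0.395, unadjusted p = 0.0144, adjusted p = 0.87), and it was the only ligand higher in knockout at an unadjusted p of 0.05 in that fit, where 3.89% of all genes were and 0.0% passed after adjustment. Without knockout 4 it was 0.31. Ccl6 had a log2 fold change of 0.90 (SE 0.399, unadjusted p = 0.0598, adjusted p = 0.87 in edgeR) without knockout 2 and wild type 3. Those were the knockout mouse lowest and the wild-type mouse highest in macrophage markers, and the part of that in these values was not tested.

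Sequence just upstream of the start site is printed for 2 pairs of neighbouring ligand genes, Ccl6 with Ccl9, whose levels moved together over the mice, and Cxcl9 with Cxcl10, whose levels did not. Each line holds the 250 bases before the annotated start in GRCm38.p6, from RefSeq, 5′ to 3′ in the direction of transcription, and all 4 genes lie on the minus strand. The windows are chr11:83593088-83593337 for Ccl6, chr11:83578637-83578886 for Ccl9, chr5:92328080-92328329 for Cxcl9 and chr5:92348890-92349139 for Cxcl10. Capitals mark matches to 1 of 4 motif cores, searched on both strands.
Ccl6: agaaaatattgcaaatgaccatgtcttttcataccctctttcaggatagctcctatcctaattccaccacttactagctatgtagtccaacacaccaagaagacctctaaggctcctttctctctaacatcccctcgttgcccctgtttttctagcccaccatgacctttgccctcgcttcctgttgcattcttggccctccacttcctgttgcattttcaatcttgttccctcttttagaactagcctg
Ccl9: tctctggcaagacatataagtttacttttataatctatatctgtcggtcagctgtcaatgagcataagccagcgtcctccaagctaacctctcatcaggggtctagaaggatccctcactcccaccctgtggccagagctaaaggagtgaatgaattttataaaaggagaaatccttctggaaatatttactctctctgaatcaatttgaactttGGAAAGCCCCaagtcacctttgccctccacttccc
Cxcl9: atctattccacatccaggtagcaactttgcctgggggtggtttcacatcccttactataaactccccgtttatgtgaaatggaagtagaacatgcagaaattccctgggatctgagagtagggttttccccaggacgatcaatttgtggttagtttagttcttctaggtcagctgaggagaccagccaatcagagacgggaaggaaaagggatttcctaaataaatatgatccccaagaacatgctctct
Cxcl10: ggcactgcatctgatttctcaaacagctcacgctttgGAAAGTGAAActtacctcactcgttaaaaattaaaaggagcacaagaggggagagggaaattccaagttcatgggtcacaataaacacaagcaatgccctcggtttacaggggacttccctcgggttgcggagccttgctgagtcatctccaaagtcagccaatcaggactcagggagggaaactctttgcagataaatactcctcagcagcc

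The cores were GGG, 2 bases of any kind and TTTCC for NF-kB, the factor that drives many inflammatory genes, GAAA, 2 bases of any kind and GAAA for the interferon-stimulated response element (ISRE), TTCNNNGAA for the interferon-gamma activated site (GAS) and GAGGAAGT for the myeloid factor PU.1. The Ccl9 window held an NF-kB core match, GGAAAGCCCC on the printed strand, starting 35 bases before the start. In the Cxcl10 window an ISRE core match, GAAAGTGAAA, began 213 bases before the start. The Ccl6 and Cxcl9 windows held none of the 4 letter strings. RefSeq windows were at hand for 21 ligands and 15 receptors. An NF-kB core match was present in 3 of the 21 ligand windows (Ccl9, Cxcl1 and Cxcl2) and in 1 of the 15 receptor windows (Ccr3), against 1.4% of 32544 promoter windows of the same length. The ISRE core was in 3 ligand windows (Cxcl10, Cxcl14 and Ccl19) and 0 receptor windows, against 2.98% of all windows, the GAS core in 2 and 2, against 7.04%, and the PU.1 core in 0 and 1, against 2.46%. A match describes letters in the window and does not show that a factor binds there. Each core is 1 narrow form of a site whose letters vary, so a window without a match may still hold such a site.

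Ccl2, Ccl7, Ccl11, Ccl12 and Ccl8 form a second cluster on chromosome 11 and encode monocyte and eosinophil attractants. Ccl2, the main monocyte attractant of inflamed fat (chr11:82035577-82037452), was at 11.7, 9.59, 3.58 and 12.8 CPM in knockout 1 to 4, against 6.35, 36.1, 7.91 and 3.79 CPM in wild type 1 to 4. Ccl7, a second Ccr2 ligand (chr11:82045712-82047523), was at 9.97, 7.84, 3.98 and 13.2 CPM in knockout 1 to 4, against 5.96, 26.8, 8.20 and 4.84 CPM in wild type 1 to 4. Wild type 2 was the highest mouse for both genes, and knockout 3 the lowest. The log2 fold change of Ccl2 was -0.53 (SE 0.698, adjusted p = 1, edgeR quasi-likelihood) with all mice and 0.64 without wild type 2, so that 1 mouse set its sign. For Ccl7 the values were -0.39 (SE 0.576) and 0.47. Wild type 2 was also the highest mouse for Cxcl1, a neutrophil attractant that binds Cxcr2, at 2.67 CPM, against 0.681 to 1.01 CPM in the other wild-type mice and 0.535 to 2.03 CPM in knockout mice. The log2 fold change of Cxcl1 was 0.06 (SE 0.565). The smooth muscle and pericyte markers summed to 823 CPM in wild type 2, against 360 to 529 CPM in the other wild-type mice and 305 to 372 CPM in knockout mice. That gap came from the actin gene Acta2, at 605 CPM in wild type 2, and without Acta2 the sum was 218 CPM there, inside the 177 to 301 CPM of the other wild-type mice and the 173 to 251 CPM of knockout mice. The mesothelial markers, 7 in all, summed to 1030 CPM in wild type 2, against 196 to 667 CPM in the other wild-type mice and 122 to 912 CPM in knockout mice, and the part of either list in these values was not tested.

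The other genes of that cluster behaved differently. Ccl11 (chr11:82057832-82062955) was at 35.7, 29.1, 63.2 and 47.1 CPM in knockout 1 to 4, against 37.7, 28.2, 52.6 and 36.0 CPM in wild type 1 to 4, with a log2 fold change of 0.18 (SE 0.263, 95% interval -0.42 to 0.78). Its mice spread evenly, with knockout 3 and wild type 3 highest. Ccl8, a monocyte chemoattractant (chr11:82115185-82116799), was at 9.06, 7.04, 0.99 and 12.4 CPM in knockout 1 to 4, against 1.38, 4.00, 30.8 and 12.3 CPM in wild type 1 to 4. The ratio of its highest to its lowest mouse was 31.1, with wild type 3 highest and knockout 3 lowest. The log2 fold change of Ccl8 was -0.72 (SE 0.93) and 0.32 without wild type 3.

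The interferon-inducible ligands Cxcl9, Cxcl10 and Cxcl11 all bind Cxcr3, the receptor of activated T cells. Cxcl9 (chr5:92321331-92328079) was at 40.7, 37.5, 46 and 42.3 CPM in knockout 1 to 4, against 58.3, 28.3, 42.3 and 49.5 CPM in wild type 1 to 4. All knockout mice lay inside the wild-type range, and the log2 fold change was -0.10 (SE 0.197, 95% interval -0.54 to 0.35). Cxcl10 (chr5:92346639-92348889) was at 1.78, 0.885, 0.969 and 4.58 CPM in knockout 1 to 4, against 2.02, 3.35, 2.61 and 0.775 CPM in wild type 1 to 4, with a log2 fold change of -0.09 (SE 0.611). Its highest mice were knockout 4 and wild type 2, in neither of which Cxcl9 was highest of its genotype. Over the 8 mice the log2 CPM of Cxcl9 and Cxcl10 had a Pearson r of -0.32 and a Spearman rho of -0.29 (exact permutation p = 0.453 and 0.501, adjusted p = 0.741 and 0.774 over 703 pairs). Without wild type 1 and wild type 2, the mice farthest from the median of Cxcl9, r was -0.25. Cxcl11 was not tested, with 53 counts over the 8 libraries.

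Cxcl12, the stromal ligand of Cxcr4 that holds haematopoietic cells in their niches (chr6:117168535-117181368), was at 110, 84.2, 183 and 94.2 CPM in knockout 1 to 4, against 124, 81.9, 137 and 116 CPM in wild type 1 to 4. Apart from knockout 3 its mice lay between 81.9 and 137 CPM, and the log2 fold change was 0.03 (SE 0.258, 95% interval -0.55 to 0.62), which was -0.26 without knockout 3. Ccl25, known as a ligand of Ccr9 in thymus and gut, varied less, at 2.20, 2.10, 1.75 and 1.78 CPM in knockout 1 to 4, against 2.35, 2.94, 2.20 and 1.93 CPM in wild type 1 to 4. It was lower in knockout by a log2 value of -0.27 (SE 0.228, interval -0.78 to 0.25), within the spread between mice. Ccl27a, a ligand of Ccr10, had the ratio of highest to lowest mouse of 1.44, against 1.68 for Ccl25, 2.23 for Cxcl12 and 2.06 for Cxcl9.

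Cxcl16, a membrane-bound ligand of Cxcr6, was at 22.5, 15.5, 14.1 and 32.7 CPM in knockout 1 to 4, against 13.5, 16.5, 23.1 and 18.1 CPM in wild type 1 to 4. Knockout 4 was highest and wild type 1 lowest, as for Ccl6, and the log2 fold change was 0.25 (SE 0.279, 95% interval -0.38 to 0.89). Part of its 2448 exonic bases overlaps those of Zmynd15, so some of these counts may belong to that gene. Ccl5, an inflammatory ligand that T cells and macrophages make, was at 1.82, 2.10, 3.96 and 10.3 CPM in knockout 1 to 4, against 1.82, 1.18, 5.30 and 4.73 CPM in wild type 1 to 4. Its log2 fold change of 0.48 (SE 0.66) rested on knockout 4 and was -0.33 without that mouse. The T and NK cell markers summed to 60.3 CPM in knockout 4, against 10.9 to 24.0 CPM in the other knockout mice and 9.04 to 23.4 CPM in wild-type mice. Il7r, a cytokine receptor gene, gave 36.8 CPM of the sum in knockout 4, and without Il7r the sum was 23.6 CPM there, against 4.93 to 16.9 CPM in the other knockout mice and 4.69 to 13.1 CPM in wild-type mice. The part of these cells in the Ccl5 values was not tested.

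Several ligands were high in 1 or 2 mice. Cxcl2, a second Cxcr2 ligand, was at 0.237, 0.165, 0.189 and 1.19 CPM in knockout 1 to 4, against 0.0206, 0.235, 0.214 and 0.314 CPM in wild type 1 to 4. Knockout 4 stood above the others and wild type 1 below, and the largest ligand log2 fold change, 1.17 (SE 0.836), was -0.00044 without knockout 4. In that mouse the neutrophil marker S100a9 was at 4.46 CPM, against 0.105 to 0.158 CPM in the other knockout mice and 0.0779 to 0.588 CPM in wild-type mice. Its partner S100a8 did not stand out, at 6.28 CPM in knockout 4, against 1.05 to 5.52 CPM in the other knockout mice and 1.69 to 8.79 CPM in wild-type mice, and Mpo was at 0 in knockout 4. The neutrophil markers, 9 in all, summed to 4.06 to 16.1 CPM in knockout mice and 3.61 to 13 CPM in wild-type mice, and their part was not tested. Cxcl13, the B cell attractant that binds Cxcr5, was at 1.76, 1.93, 8.08 and 0.716 CPM in knockout 1 to 4, against 6.75, 1.29, 0.565 and 1.72 CPM in wild type 1 to 4. Knockout 3 and wild type 1 held the high values, and its log2 fold change was 0.28 (SE 0.887) with all mice and -0.81 without knockout 3. The B cell markers, 7 in all, summed to 43.0 CPM in knockout 3, against 7.58 to 14.5 CPM in the other knockout mice, and to 25.9 CPM in wild type 1 and 41.7 CPM in wild type 4, against 5.51 and 7.21 CPM in wild type 2 and 3. Most of the sum in knockout 3 and wild type 4 was Igj, the J chain gene of antibody-secreting cells, at 31.4 CPM in knockout 3 and 31.3 CPM in wild type 4. Without Igj the sums were 11.6 CPM in knockout 3, against 4.52 to 6.05 CPM in the other knockout mice, and 13.2 CPM in wild type 1, against 3.94 to 10.4 CPM in the other wild-type mice. The part of B cells in the Cxcl13 values was not tested.

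Knockout 2 and wild type 3, each highest in its genotype for ciliated and epididymal epithelium markers, were also highest for Ccl28, Cx3cl1 and the dendritic cell ligand Ccl22. Ccl22 was at 2.41 CPM in knockout 2, against 0.421 to 1.90 CPM in the other knockout mice. In wild type 3 Ccl22 was at 1.97 CPM, against 0.495 to 1.61 CPM in the other wild-type mice. Ccl28, a ligand made by mucosal epithelium, was at 0.653, 7.78, 0.274 and 0.430 CPM in knockout 1 to 4, against 0.454, 0.275, 3.55 and 1.05 CPM in wild type 1 to 4. The log2 fold change of Ccl28 was 0.78 (SE 1.18) with all mice, -1.56 without knockout 2 and -0.38 without the pair. Cx3cl1, or fractalkine, a membrane-tethered ligand, was at 4.53, 10.9, 3.43 and 3.50 CPM in knockout 1 to 4, against 4.19, 3.35, 6.41 and 3.96 CPM in wild type 1 to 4. Outside that pair of mice Cx3cl1 stayed between 3.35 and 4.53 CPM, and its log2 fold change was 0.32 (SE 0.402) with all mice and -0.0032 without the pair. The ciliated and epididymal epithelium markers, 11 in the files with Adam28 at 0 in every library, summed to 188 CPM in knockout 2, against 6.21 to 32.6 CPM in the other knockout mice. In wild type 3 they summed to 65.0 CPM, against 7.44 to 56.2 CPM in the other wild-type mice. Their part in these ligand values was not tested.

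**Figure D3:**
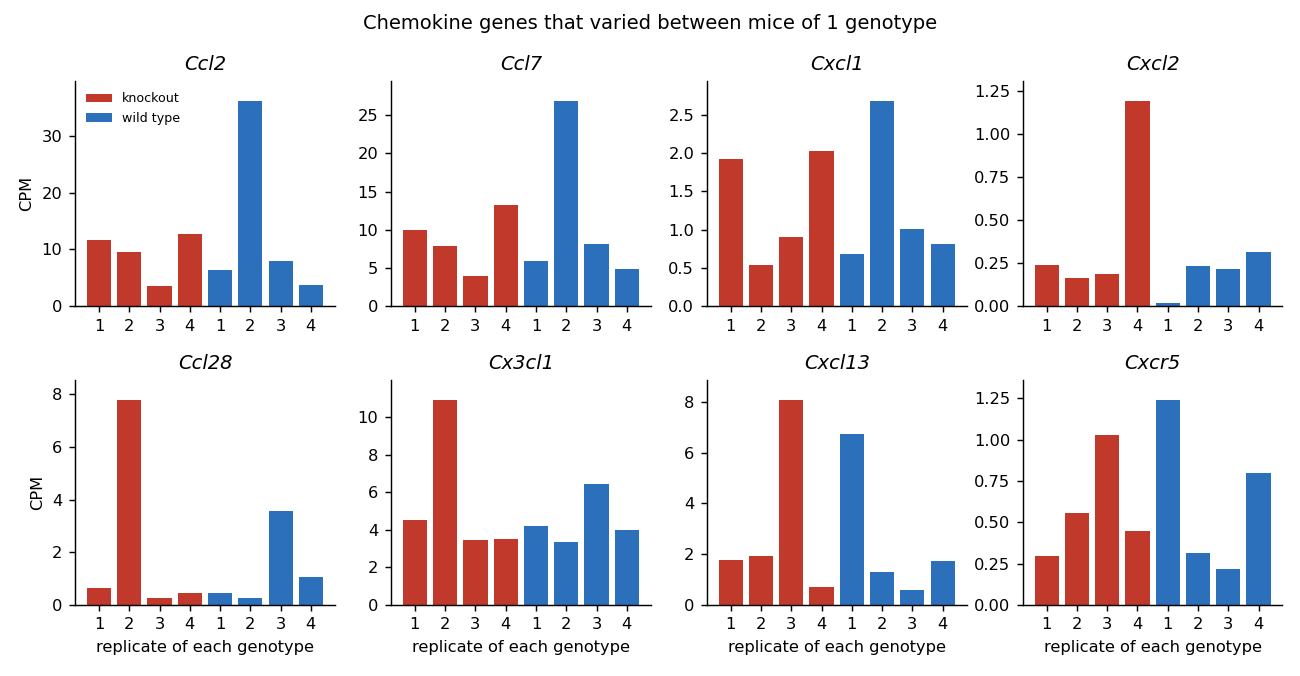
CPM of 8 chemokine genes in each mouse, as bars that start at 0, with knockout 1 to 4 left of wild type 1 to 4. Wild type 2 has the tallest bar for Ccl2 (36.1) and Ccl7 (26.8), knockout 2 for Ccl28 (7.78) and Cx3cl1 (10.9), and knockout 3 and wild type 1 stand out for Cxcl13 (8.08 and 6.75).

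Of the remaining tested ligands, Ccl24 averaged 10.5 TPM and Cxcl14 8.0 TPM over the 8 libraries, and the others were lower. Ccl24, a second eotaxin, averaged 5.59 ± 1.29 CPM in knockout and 6.84 ± 4.51 CPM in wild-type mice (SD, n = 4 each). Cxcl14 averaged 6.16 ± 3.39 CPM in knockout and 7.17 ± 6.71 CPM in wild-type mice. Ccl12, Ccl17, Ccl22, Ccl3, Ccl4 and Xcl1 averaged at most 1.53 CPM in either genotype. Ccl17 and Ccl22 are the Ccr4 ligands of dendritic cells, Ccl3 and Ccl4 are macrophage inflammatory proteins, and Xcl1 attracts cross-presenting dendritic cells through Xcr1. The ligands with too few counts to test were Ccl19 (109 counts over 8 libraries), Cxcl11 (53) and Ccl1 (26). Under the count minimum lay Cxcl5 (6), Cxcl3 (3), Ccl26 (1) and Cxcl17 (1), while Ccl20, Cxcl15, Ccl27b and Ccl21c had 0 counts in every library. With 0 counts, a level of up to 3 counts, or 0.0583 to 0.0646 CPM, is allowed in a library, for counting error alone. Ccl19, Ccl21c and Ccl27b lie in several near-identical copies, so their counts are uncertain, and Ccl21a was not among the gene symbols counted.

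The receptors were dominated by Cxcr7, the atypical receptor now named Ackr3, which binds Cxcl12 and removes it without G protein signalling. Cxcr7 averaged 56.4 ± 20.0 TPM in knockout and 66.2 ± 9.38 TPM in wild-type mice (SD, n = 4 each), or 43.5% and 54.5% of the summed receptor TPM in knockout and wild-type mice. Ccr2 averaged 29.4 ± 11 TPM in knockout and 21.6 ± 8.77 TPM in wild-type mice, and Cxcr4 averaged 21.5 ± 7.80 TPM in knockout and 19.0 ± 7.19 TPM in wild-type mice. The ranges of Ccr2 and Cxcr4 over the mice overlapped, so their order is not firm. In all, 3 receptors averaged 10 TPM or more, 5 lay between 1 and 10 TPM, 5 between 0.1 and 1 TPM and 6 under 0.1 TPM. The summed receptor level was 132 ± 36.2 TPM in knockout and 124 ± 27.3 TPM in wild-type mice.

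**Figure D4:**
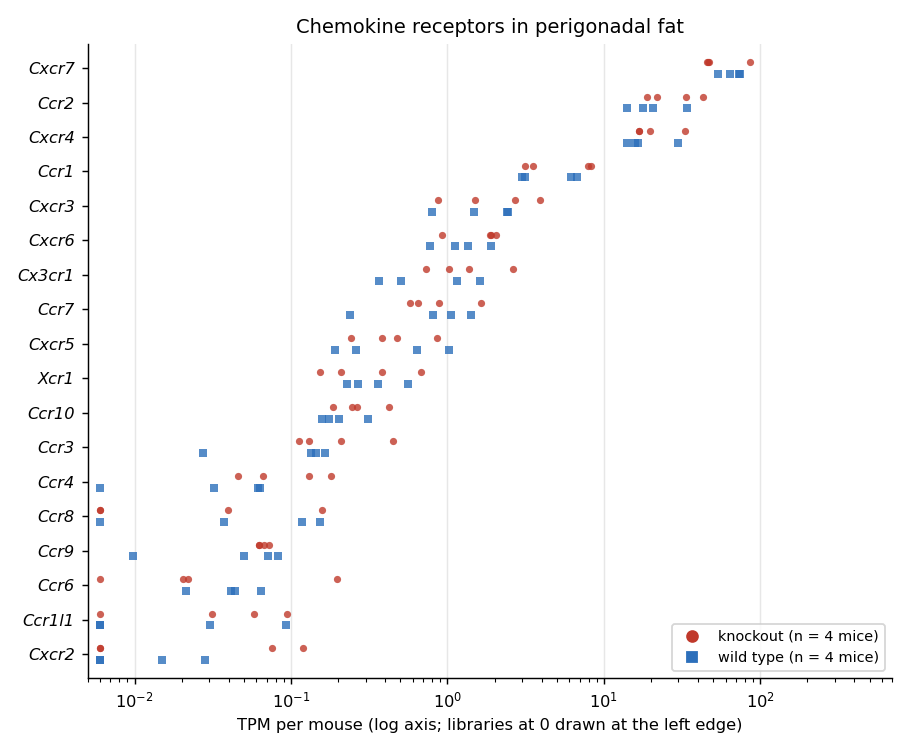
Level in TPM, on a log axis, of 18 of the 19 chemokine receptors in each of 8 mice, ordered by mean, with circles for knockout and squares for wild-type mice and libraries at 0 drawn at the left edge. Cxcr7, Ccr2 and Cxcr4 have the highest means, and the genotypes overlap for each of the tested receptors drawn.

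Cxcr7 (chr1:90204003-90216288) was at 104, 54.4, 55.1 and 53.1 CPM in knockout 1 to 4, against 76.3, 86.4, 82.1 and 66.1 CPM in wild type 1 to 4. Knockout 1 was the highest of all mice and the other 3 knockout mice were the lowest. The log2 fold change was -0.22 (SE 0.225, 95% interval -0.73 to 0.29, adjusted p = 1 in edgeR's quasi-likelihood test). Without knockout 1 it was -0.52 (SE 0.113), with an unadjusted p of 0.00176 and an adjusted p of 1. Mesothelial markers summed to 912 CPM in knockout 1, against 122 to 416 CPM in the other knockout mice, and to 196 to 1030 CPM in wild-type mice, and their part was not tested. Fibroblast markers summed to 4620 CPM in knockout 1, against 2080 to 3050 CPM in the other knockout mice and 2220 to 3430 CPM in wild-type mice, and their part was not tested either.

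Ccr1 and Ccr2, which guide monocytes and macrophages, lie on chromosome 9. Ccr2, the receptor of Ccl2 on inflammatory monocytes (chr9:124102183-124109140), was at 56.1, 35.5, 31.4 and 69.2 CPM in knockout 1 to 4, against 23.3, 29.3, 52.8 and 34.9 CPM in wild type 1 to 4. Wild type 3 lay above 2 of the knockout mice, and the log2 fold change was 0.45 (SE 0.314, interval -0.26 to 1.17). Without knockout 2 and wild type 3 it was 0.84 (SE 0.3, unadjusted p = 0.0271, adjusted p = 0.87). Ccr1, the receptor of Ccl6 and Ccl9, was at 11, 4.49, 4.08 and 9.99 CPM in knockout 1 to 4, against 3.92, 4.08, 8.26 and 8.27 CPM in wild type 1 to 4. Its mice fell into high and low values in both genotypes, and the log2 fold change was 0.27 (SE 0.409). The macrophage markers, 10 in all with none at 0 in every library, summed to 441 to 1710 CPM in knockout mice and 370 to 1010 CPM in wild-type mice. Knockout 2 had the lowest sum of the knockout mice and wild type 3 the highest of the wild-type mice. The part of macrophages in the Ccr2 value without that pair was not tested.

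Cxcr4, the signalling receptor of Cxcl12 (chr1:128588199-128592299), was at 16.7, 13.6, 14 and 26.9 CPM in knockout 1 to 4, against 11.7, 13.8, 23.2 and 13.7 CPM in wild type 1 to 4. Knockout 4 and wild type 3 were high, and the log2 fold change was 0.19 (SE 0.28, 95% interval -0.45 to 0.82). Cx3cr1, the fractalkine receptor of monocytes and macrophages, was at 1.27, 2.31, 1.75 and 4.42 CPM in knockout 1 to 4, against 0.867, 1.96, 2.59 and 0.649 CPM in wild type 1 to 4. Knockout 4 was again highest, and the log2 fold change was 0.68 (SE 0.534, interval -0.53 to 1.89). Among receptors of lymphocytes, Cxcr3 had 0.653, 1.09, 2.02 and 2.82 CPM in knockout 1 to 4, against 1.09, 0.588, 1.68 and 1.86 CPM in wild type 1 to 4. Cxcr6, found on tissue T cells and NKT cells, had 0.811, 1.61, 1.64 and 1.74 CPM in knockout 1 to 4, against 0.970, 0.667, 1.56 and 1.22 CPM in wild type 1 to 4. Their log2 fold changes were 0.34 (SE 0.516) and 0.39 (SE 0.362), with knockout 1 the lowest knockout mouse for each.

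Ccr7, which leads dendritic cells and naive T cells to lymph nodes, had 0.811, 0.515, 0.590 and 1.45 CPM in knockout 1 to 4, against 0.743, 0.216, 1.21 and 0.985 CPM in wild type 1 to 4. Its log2 fold change was 0.10 (SE 0.542). Cxcr5, the B cell receptor of Cxcl13, had 0.297, 0.556, 1.03 and 0.450 CPM in knockout 1 to 4, against 1.24, 0.314, 0.214 and 0.796 CPM in wild type 1 to 4, highest in the mice that were highest for Cxcl13. Ccr3, the eotaxin receptor of eosinophils, was near the limit of detection, at 0.198, 0.165, 0.316 and 0.655 CPM in knockout 1 to 4, against 0.0413, 0.216, 0.234 and 0.209 CPM in wild type 1 to 4. Ccr3 had a log2 fold change of 0.92 (SE 0.614, 95% interval -0.47 to 2.31), and of the eosinophil markers Epx was at 0 in all knockout mice and at most 0.039 CPM in wild-type mice, Ear6 was at 0 in every mouse, and Prg2 was at 0.574 to 0.716 CPM in knockout and 0.371 to 0.817 CPM in wild-type mice. Xcr1, a receptor of cross-presenting dendritic cells, averaged 0.716 ± 0.463 CPM in knockout and 0.711 ± 0.264 CPM in wild-type mice (SD, n = 4 each). The untested receptors were Ccr10 (76 counts over 8 libraries), Ccr9 (47), Ccr4 (36), Ccr6 (19), Cxcr2 (16), Ccr8 (13) and Ccr1l1 (10), and Cxcr1 (2) was under the minimum.

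The mice differed in the level of macrophage genes, and part of the chemokine system moved with them. Macrophage markers were summarised as the mean log2 CPM of 10 genes, which was 5.70, 4.59, 4.85 and 6.43 in knockout 1 to 4, against 4.20, 4.44, 5.74 and 5.32 in wild type 1 to 4. Over the 8 mice, 8 of 38 tested members correlated with it at an adjusted p of 0.05 (Pearson r, exact permutation test over 40320 arrangements, Benjamini-Hochberg over 38 relations). All 8 correlations were positive, 4 with ligands and 4 with receptors. The ligands were Ccl6, Ccl9, Cxcl16 and Cxcl2, and the receptors included Ccr1, Ccr2 and Cxcr4. By Spearman's rho 12 members passed, and 31 of 38 members had an r above 0, with a median of 0.44. The number that passed by r was 4 without knockout 4, 6 without knockout 2 and wild type 3, and up to 9 with another mouse left out. This comparison was chosen after the data had been seen, and the same libraries enter both axes. The share of all tested genes that pass is not given here. Whether members pass more often than other genes therefore cannot be told.

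Ccl6 followed the macrophage mean most closely, with r = 0.99 and rho = 0.95 (exact permutation p = 0.000149 and 0.00114, adjusted p = 0.0033 and 0.0283). Without the 2 mice farthest from the median of the macrophage mean, knockout 4 and wild type 1, r remained 0.99, and it was 0.99 after centring each genotype on its own mean. Ccl9 had r = 0.96 and rho = 0.93 (exact permutation p = 0.000298 and 0.00223, adjusted p = 0.0033 and 0.0283), with r = 0.89 without those mice. Cxcl16 had r = 0.95 and rho = 0.90 (exact permutation p = 0.000719 and 0.00456, adjusted p = 0.00547 and 0.0347), with r = 0.87 without them. These 3 ligands were thus high or low in the same mice as the macrophage genes, whichever the genotype.

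Among the receptors, Ccr2 had r = 0.95 and rho = 0.90 (exact permutation p = 0.000347 and 0.00456, adjusted p = 0.0033 and 0.0347), with r = 0.88 without knockout 4 and wild type 1. Cxcr4 had r = 0.90 and rho = 0.88 (exact permutation p = 0.000248 and 0.00724, adjusted p = 0.0033 and 0.0459), with r = 0.75 without them. Ccr1 had r = 0.91 and rho = 0.86 (exact permutation p = 0.00503 and 0.0107, adjusted p = 0.0273 and 0.0487), with r = 0.93. The correlation of Cxcl2 (r = 0.81, rho = 0.71, exact permutation p = 0.00737 and 0.0576, adjusted p = 0.035 and 0.146) rested on those 2 mice, since r was 0.40 without them. By rho but not by r, Cxcl14 (rho = 0.86), Ccl4, Ccr7, Ccl5 and Ccl12 (rho = 0.83 for each) also passed. Their adjusted p was 0.0487 by rho and 0.0552 to 0.0808 by r (exact permutation test), with r of 0.76 to 0.82. For Ccl2, Cxcl12, Cxcl9 and Cxcr7 no relation with the macrophage genes was found over all 8 mice. For Ccl2, r was -0.01, for Cxcl12 0.02, for Cxcl9 0.03 and for Cxcr7 -0.05 (exact permutation p = 0.979, 0.967, 0.956 and 0.899, all with an adjusted p of 0.979). Their rho was 0.14 for Ccl2, 0.14 for Cxcl12, -0.05 for Cxcl9 and -0.17 for Cxcr7 (exact permutation p = 0.752, 0.752, 0.935 and 0.703, adjusted p = 0.772, 0.772, 0.935 and 0.772). These values rested in part on knockout 4 and wild type 1, since without them r was -0.35 for Ccl2, 0.41 for Cxcl12, 0.58 for Cxcl9 and 0.51 for Cxcr7. Cxcl13 had the most negative r, -0.67 (exact permutation p = 0.0763, adjusted p = 0.181).

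**Figure D5:**
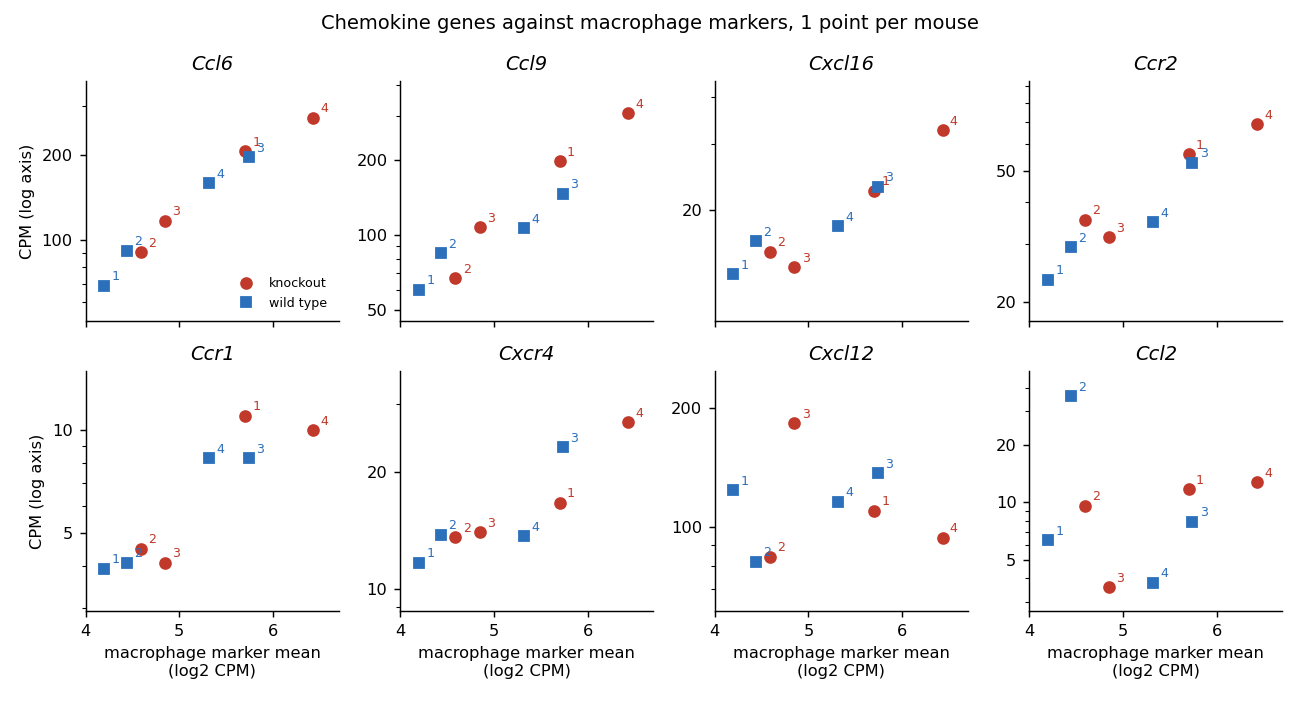
CPM of 8 members, on a log axis, against the mean log2 CPM of 10 macrophage markers in each mouse, with circles for knockout and squares for wild-type mice. Ccl6 (r = 0.99), Ccl9, Cxcl16, Ccr2, Ccr1 and Cxcr4 rise along the axis in both genotypes, while Cxcl12 (r = 0.02) and Ccl2 (r = -0.01) do not.

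Known ligand and receptor partners were compared over the mice for the 16 pairs in which both genes were tested. An r above 0 was found for 14 of them, with a median of 0.42. Of the 703 pairs of all tested members, 454 had an r above 0, with a median of 0.21. Only Ccl6 with Ccr1 (r = 0.93, rho = 0.88, exact permutation p = 0.00454 and 0.00724, adjusted p = 0.0466 and 0.116) and Ccl9 with Ccr1 (r = 0.85, rho = 0.81, exact permutation p = 0.00583 and 0.0218, adjusted p = 0.0466 and 0.147) passed by Pearson's r, and 0 passed by rho. Without the 2 mice farthest from the median of the ligand, r was 0.93 for Ccl6 and 0.73 for Ccl9. Ccl6, Ccl9 and Ccr1 each also correlated with the macrophage mean (r = 0.99, 0.96 and 0.91). The part of macrophages in these pairs was not tested. The number of pairs that passed was 4 without knockout 1 and 0 without any other single mouse. Cxcl13 with Cxcr5 had r = 0.84 and rho = 0.76 (exact permutation p = 0.00982 and 0.0368, adjusted p = 0.0524 and 0.147), which rested on knockout 3 and wild type 1, since r was 0.55 without them. For Ccl2 with Ccr2, r was 0.17 and rho 0.36 (exact permutation p = 0.696 and 0.389, adjusted p = 0.796 and 0.519), and r was 0.65 without wild type 2 and knockout 3. For Cxcl12 with Cxcr4, r was -0.05 and rho 0.10 (exact permutation p = 0.91 and 0.84, adjusted p = 0.91 and 0.896), and for Cx3cl1 with Cx3cr1, r was 0.17 and rho 0.10 (exact permutation p = 0.687 and 0.84, adjusted p = 0.796 and 0.896).

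Over all 703 pairs of tested members, 454 had an r above 0 and 4 passed an adjusted p of 0.05 by Pearson's r, of which 2 also passed by rho. The neighbours Ccl2 and Ccl7 had r = 0.99 and rho = 0.98, and the neighbours Ccl6 and Ccl9 had r = 0.96 and rho = 0.98 (for each, exact permutation p = 4.96e-05 and adjusted p = 0.00872 by r). Neither of these neighbour pairs passed by rho. Ccl12 with Ccl4, which also passed by rho, had r = 0.98 and rho = 1.00 (exact permutation p = 2.48e-05 by r, the smallest that 8 mice allow, adjusted p = 0.00872 by r). Without the 2 mice farthest from the median of the first gene, r was 0.94 for Ccl2 with Ccl7, 0.95 for Ccl9 with Ccl6 and 0.94 for Ccl12 with Ccl4. Ccl11, the next gene after Ccl7 on chromosome 11, had no pair that passed.

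In the wider chemokine pathway, lists of genes outside the symbol pattern held no gene that passed. Of 18 tested genes of leukocyte migration downstream of the receptors, 17 had a log2 fold change above 0, with a median of 0.51. The smallest unadjusted p there was that of Pik3cd, a leukocyte phosphoinositide kinase, at 18.5 ± 8.83 CPM in knockout and 11.4 ± 4.96 CPM in wild-type mice (SD, n = 4 each). Macrophages also express many of these genes, 1 of which (Itgam) is among the macrophage markers, and the part of macrophages in the counts was not tested. Of 18 tested inducers of chemokine genes, 9 lay above 0 and 9 below, with a median of 0.01. Tnf, a cytokine that activates NF-kB, was at 0.567 ± 0.337 CPM in knockout and 0.251 ± 0.0971 CPM in wild-type mice, with a log2 fold change of 1.16 (SE 0.49, unadjusted p = 0.0414, adjusted p = 1 in edgeR).

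Among 16 genes of receptor coupling and desensitisation, 10 lay above 0 and 6 below, with a median of 0.03. Gnaq, a G protein alpha subunit, was at 87.5 ± 4.45 CPM in knockout and 101 ± 8.00 CPM in wild-type mice (SD, n = 4 each), with a log2 fold change of -0.21 (SE 0.0886, unadjusted p = 0.0434, adjusted p = 1 in edgeR). Rgs1, which shortens chemokine receptor signalling in leukocytes, averaged 9.76 ± 10.4 CPM in knockout and 2.61 ± 1.93 CPM in wild-type mice, with a log2 fold change of 1.90 (SE 0.864). It was at 11.2, 1.83, 2.08 and 23.9 CPM in knockout 1 to 4, against 1.11, 2.20, 5.42 and 1.70 CPM in wild type 1 to 4. Of 15 tested genes of chemokine presentation and processing, 9 lay above 0 and 6 below, with a median of 0.01. Mmp12, a macrophage protease that can cleave chemokines, averaged 171 ± 193 CPM in knockout and 44.1 ± 28.8 CPM in wild-type mice, with a log2 fold change of 1.96 (SE 0.89, unadjusted p = 0.0563, adjusted p = 1 in edgeR). It was at 181, 37.0, 26.3 and 440 CPM in knockout 1 to 4, against 20.8, 54.7, 80.0 and 20.8 CPM in wild type 1 to 4. Knockout 1 and 4 thus held the high values of Rgs1 and Mmp12, and the part of macrophages in them was not tested. Of 5 tested atypical or chemokine-like receptors, not counting Cxcr7, 1 lay above 0 and 4 below. Darc (Ackr1), which carries chemokines across venules, averaged 5.39 ± 1.44 CPM in knockout and 6.44 ± 2.56 CPM in wild-type mice. The ligands Pf4, Ppbp and Cklf, which the symbol pattern leaves out, had log2 fold changes of 0.08 (SE 0.476), 0.07 (SE 0.485) and 0.22 (SE 0.264).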

How the data were processed

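The authors deposited 1 table per mouse of unnormalized counts of reads for each gene symbol. The sequencer was a HiSeq4000, per the labels' protocols. STAR 2.4.0g1, featureCounts, Cufflinks, edgeR, FastQC 0.11.2 and the mm10 build appear in the submitters' processing notes, without their roles or the strand setting, which is not given in the sources used here. Groups came from the labels, and the targeted gene and 1 receptor are not reported here. Under R 4.3.3 and edgeR 4.0.16, filterByExpr set the genes to test, TMM factors (0.966 to 1.05) scaled the libraries, and a robust quasi-likelihood F test compared the genotypes, with no covariate and Benjamini-Hochberg adjustment over 14493 genes, at a threshold of 0.05. CPM use TMM-scaled library sizes, and TPM divide counts by the union of exon positions in the authors' deposited annotation, so genes with long alternative exons read low. Correlations use log2 CPM with a prior count of 2. Intervals of a log2 fold change are 95% intervals on the fit's degrees of freedom, and limits on 0 counts cover counting error only. Counting error is small for genes above a few CPM, with a common biological coefficient of variation of 0.301.

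Libraries of 1 genotype differed by more than sampling noise in every pair (chi-square per degree of freedom at least 63). The procedure was tested on simulated counts. DESeq2 1.42.0 and limma 3.58.1 (voom), other scalings and filters, a replicate block, each library left out, and knockout 2 and wild type 3 left out were alternatives. Named genes were the 8 ligands and 6 receptors highest in TPM, the 5 of each kind with the smallest p, and a fixed list of 22. The members, lists, pair of libraries and tests were chosen with earlier results of these data known, and the comparison with macrophage markers after seeing the data. The 14 marker lists were summed as CPM, and 0 of their tested genes passed in any list. Summed levels not given in the report were 66.0 to 88.2 CPM in knockout and 42.1 to 135 CPM in wild-type mice for monocytes, 16.1 to 30.9 CPM in knockout and 17.8 to 37.5 CPM in wild-type mice for dendritic cells, 3.62 to 9.10 CPM in knockout and 2.20 to 21.7 CPM in wild-type mice for eosinophils and mast cells (Ear6 at 0), 901 to 1400 CPM in knockout and 914 to 1390 CPM in wild-type mice for endothelium, and 54.3 to 124 CPM in knockout and 76.9 to 107 CPM in wild-type mice for lymphatic endothelium. Most of the monocyte sum was the marker Ace, at 31.1 to 121 CPM over all mice, and without Ace the sum was 7.92 to 18.0 CPM. Ccr2, Ccr7 and Xcr1 were left out of the marker lists as members. Sequencing-core numbers run in separate blocks for the genotypes, so such a batch and the genotype cannot be told apart.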

Additional observations from a re-analysis of the deposited data

Results flagged for a closer look

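Of 52 groups of 4 mice examined, 1 for each genotype and each of the named tested members, 4 held a mouse far from the other 3 on the log2 CPM scale, where chance gives about 2.6. The atypical receptor Cxcr7 was at 6.7 in knockout 1, against 5.73 to 5.79 in the other knockout mice. Cxcr6, the receptor of Cxcl16, was at -0.23 in knockout 1, against 0.72 to 0.83 in the other knockout mice. The neutrophil attractant Cxcl2 was at 0.30 in knockout 4, against -2.28 to -1.85 in the other knockout mice. The eotaxin receptor Ccr3 was at -3.61 in wild type 1, against -2.0 to -1.87 in the other wild-type mice, at counts near the limit of detection.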

How the results depend on the processing

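No ligand or receptor passed an adjusted p of 0.05 in any setting run. Over all genes, 2 passed as reported, 17 with DESeq2, and 0 with total counts, no low-count filter, the replicate block, limma voom, any 1 library left out, or knockout 2 and wild type 3 left out. The replicate numbers do not pair the mice (correlation of deviations 0.117, -0.0152, -0.32 and -0.0173 for numbers 1 to 4), and with the replicate block the ligand median was 0.085 and the receptor median 0.241. The ligand median was also 0.085 with limma voom and 0.035 with a filter of 1 CPM in 4 libraries. With 1 library left out, the ligand median ranged from -0.108 to 0.321 and the receptor median from 0.08 to 0.445. The ligand and receptor pairs that passed numbered 0 to 4 with 1 mouse left out and 0 without knockout 2 and wild type 3, and members correlated with the macrophage mean numbered 4 (without knockout 4) to 9, and 6 without the pair.

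Of 231 log2 fold changes of named members under other settings, 225 kept their sign and 6 did not. These were Ccl8, at 0.05 with the replicate block and 0.34 without the pair of libraries, Cx3cl1 (-0.0032) and Cxcl10 (0.25) without that pair, and Cxcl12, at -0.01 with the replicate block and -0.01 with limma voom. The cause was not tested. With 1 library left out, 26 of 208 changed sign, in 16 members. Their ranges were -0.05 to 0.36 for Ccl11, -0.83 to 0.64 for Ccl2, -0.33 to 0.82 for Ccl5, -0.66 to 0.47 for Ccl7, -1.10 to 0.32 for Ccl8, -0.31 to 0.38 for Ccr7, -0.23 to 0.54 for Cx3cl1, -0.21 to 0.68 for Cxcl1, -0.86 to 0.19 for Cxcl10, -0.26 to 0.16 for Cxcl12, -0.81 to 1.39 for Cxcl13, -0.05 to 0.40 for Cxcl16, -0.00044 to 1.48 for Cxcl2, -0.27 to 0.06 for Cxcl9, -0.07 to 0.60 for Cxcr3 and -0.09 to 0.44 for Cxcr4. With 4 mice a genotype, a true difference smaller than the intervals given is not detectable, and genes under about 1 CPM rest on few counts.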
